A study of Mus musculus with 6 samples.

Results

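Prkce and Pik3c2a encode kinases of lipid signalling, and the circular RNAs (circRNAs) listed for these 2 host genes in mouse liver are described here. Every entry that names either gene as its host was taken, and entries with the same end and strand and starts 1 bp apart were summed, so that 16 of 7469 listed entries became 14 of 7122 circRNAs. Prkce gave 5 circRNAs and Pik3c2a gave 9, out of 3468 host genes. Both genes were selected on the back-spliced reads themselves, because circRNAs of theirs differed between the diets in these same libraries. The values by diet are therefore given as a description, with no test.

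Liver RNA came from male C57BL/6J mice aged 12 weeks, 3 fed a high-fat diet (HFD group) and 3 fed a low-fat control diet (LFD group), with 1 library per mouse. All mice were fasted before the liver was taken. Ribosomal RNA was depleted, and the study's methods add digestion of linear RNA with RNase R, a step that the sample descriptions do not name. A back-spliced read spans the junction where the 3′ end of a circle joins its 5′ end, and SRPBM is the number of such reads relative to all mapped reads. In these libraries 1 read was worth 0.229 to 0.277 SRPBM. Values by library are given in the order of replicates 1, 2 and 3 of each diet. The linear transcripts of the host genes were not analysed here.

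A circRNA forms when the splicing machinery joins a downstream splice donor to an upstream splice acceptor, which closes 1 or more exons of a gene into a loop without free ends. Prkce encodes protein kinase C epsilon, a member of the group of protein kinase C (PKC) enzymes that respond to diacylglycerol but not to calcium. In liver it is known for its activation when diacylglycerol accumulates and for phosphorylation of the insulin receptor. Pik3c2a encodes the alpha isoform of the class II phosphoinositide 3-kinases, which phosphorylate the inositol ring of membrane lipids and act in clathrin-mediated endocytosis, endosomal traffic and insulin signalling.

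The sequences of the 3 circRNAs with at least 10 reads over the 6 libraries are shown because these circles held most of the signal of both genes. Each was assembled from the exons of the listed isoform in GENCODE M21 (GRCm38). The shortest circle is given whole from its first base, with exon 20 in lower case and exon 21 in capitals.
mmu_circ_0001619 (Pik3c2a exons 20 and 21, chr7:116358636-116360100, minus strand): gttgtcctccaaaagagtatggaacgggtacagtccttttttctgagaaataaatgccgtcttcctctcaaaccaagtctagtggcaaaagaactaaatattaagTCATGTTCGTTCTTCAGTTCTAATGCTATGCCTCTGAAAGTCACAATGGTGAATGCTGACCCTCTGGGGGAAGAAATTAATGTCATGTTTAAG
For the longer circles the 100 bases before the back-splice junction are in lower case and the 100 bases after it in capitals.
circRNA2067 (Prkce exons 7 to 10, chr17:86488160-86496111, plus strand): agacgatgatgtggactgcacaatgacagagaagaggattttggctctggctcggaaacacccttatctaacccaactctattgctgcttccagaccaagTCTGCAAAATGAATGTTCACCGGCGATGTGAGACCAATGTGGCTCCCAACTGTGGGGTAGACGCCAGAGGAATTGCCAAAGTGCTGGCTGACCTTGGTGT
mmu_circ_0013805 (Pik3c2a exons 5 to 8, chr7:116387844-116391393, minus strand): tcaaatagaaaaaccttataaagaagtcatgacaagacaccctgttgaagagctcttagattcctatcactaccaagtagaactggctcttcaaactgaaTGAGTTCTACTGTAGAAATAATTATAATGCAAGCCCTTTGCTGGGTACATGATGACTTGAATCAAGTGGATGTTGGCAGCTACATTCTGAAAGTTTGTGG

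Both Pik3c2a circles shown above combined 2 listed entries. The junctions are printed to show how close the combined entries are, with the last 20 bases before the junction in lower case and the 20 bases after it in capitals.
mmu_circ_0001619: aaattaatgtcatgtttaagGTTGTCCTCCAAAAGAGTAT
circRNA4863: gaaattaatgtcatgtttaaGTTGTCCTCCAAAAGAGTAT
mmu_circ_0013805: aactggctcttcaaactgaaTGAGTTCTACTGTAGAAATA
circRNA5624: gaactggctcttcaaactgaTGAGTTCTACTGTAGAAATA
In each pair the partner entry ended 1 base inside the last exon, and the sequence after the junction was the same. The entry circRNA4863 held 4 reads beside the 17 of mmu_circ_0001619, and circRNA5624 held 2 reads beside the 13 of mmu_circ_0013805. All 4 reads of circRNA4863 lay in LFD library 1 and both reads of circRNA5624 in LFD library 2, where the respective partner had 0 reads. The summed circles are called by the database name below.

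**Figure D1:**
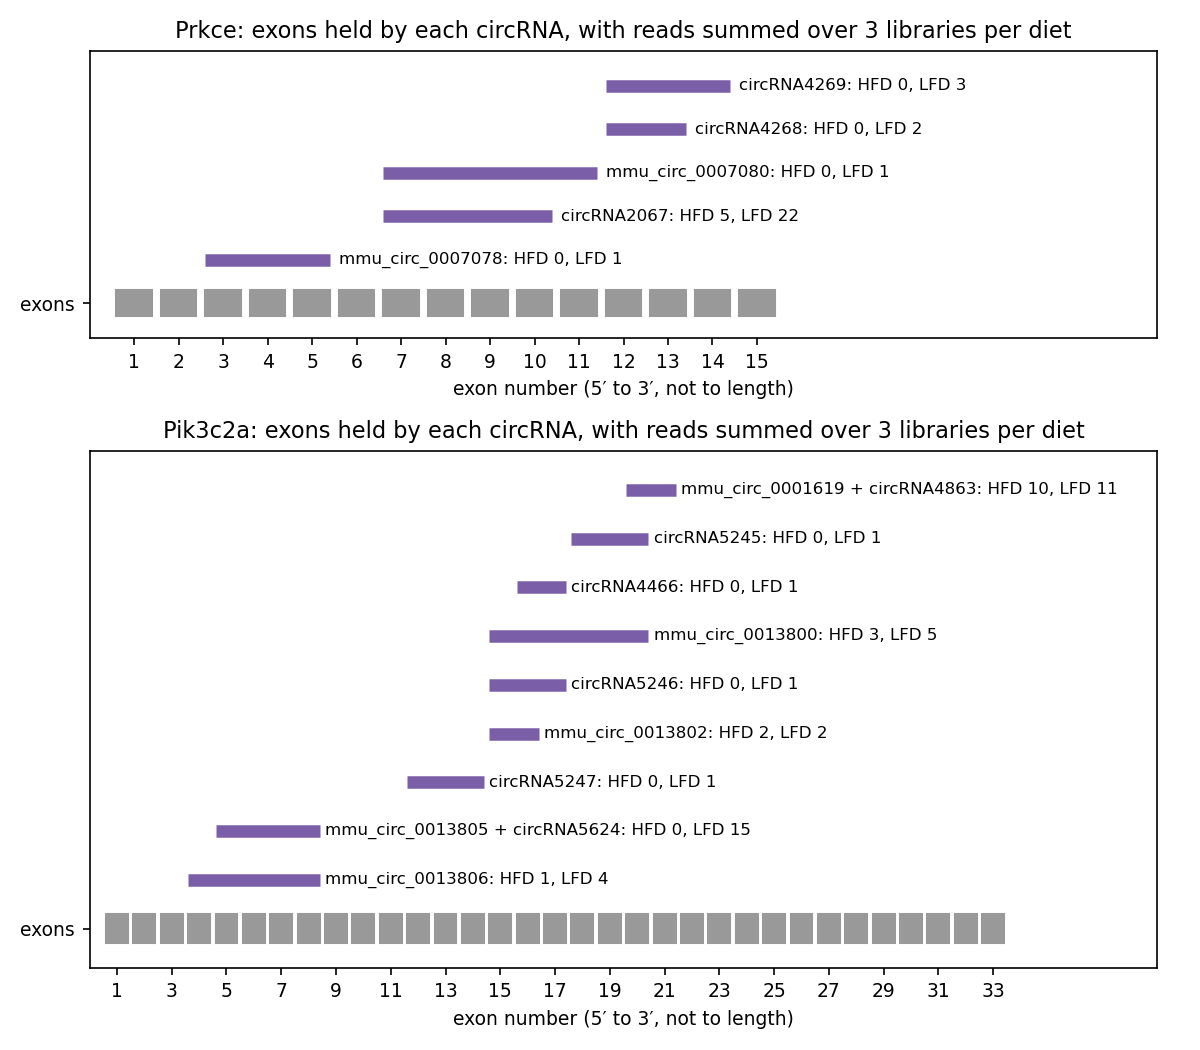
Exons held by each of the 14 circRNAs (bars) above the exons of the host transcript (grey boxes, numbered 5′ to 3′, not drawn to length), with back-spliced reads summed over the 3 libraries of each diet. Circles of Prkce lie between exons 3 and 14, and those of Pik3c2a between exons 4 and 21, with none over exons 9 to 11.

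Circular RNA from Prkce was found in 1 of 3 HFD libraries and in 3 of 3 LFD libraries. The back-spliced reads of the 5 circles together numbered 0, 5 and 0 across the HFD libraries and 19, 4 and 6 across the LFD libraries, 34 in all. In SRPBM these were 0, 1.27 and 0 in the HFD group and 5.06, 1.11 and 1.58 in the LFD group. HFD library 2 lay above LFD library 2, so that the groups overlapped, and LFD library 1 stood apart from the other 5 libraries. The mean was 0.424 ± 0.735 SRPBM (SD, n = 3) in the HFD group and 2.58 ± 2.16 SRPBM (SD, n = 3) in the LFD group, a ratio of 6.09. Without LFD library 1 the ratio was 3.17, and without HFD library 2, which left no Prkce read in the HFD group, the LFD mean was at least 3.46-fold higher than the HFD level that 3 reads per library allow. Without HFD library 1 or HFD library 3 the ratio was 4.06. A count of 0 in an HFD library allows up to 3 reads, which is 0.688 to 0.806 SRPBM in these libraries and covers counting error only.

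The circle circRNA2067, which joins exon 10 back to exon 7, held 27 of the 34 reads of Prkce (79.4%). It had 0, 5 and 0 reads across the HFD libraries and 13, 4 and 5 reads across the LFD libraries. All 5 reads of the gene in the HFD group were of this circle. Its mean was 0.424 ± 0.735 SRPBM (SD, n = 3) in the HFD group and 1.96 ± 1.30 SRPBM (SD, n = 3) in the LFD group, a ratio of 4.63 that became 2.86 without LFD library 1. The ratio was 3.09 without HFD library 1 or HFD library 3, and without HFD library 2 the LFD mean was at least 2.63-fold higher than that level.

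The remaining 4 circles of Prkce had 1 to 3 reads each, and each was seen in 1 library of the LFD group. LFD library 1 held circRNA4269 (exons 12 to 14, 3 reads), circRNA4268 (exons 12 and 13, 2 reads) and mmu_circ_0007080 (exons 7 to 11, 1 read). LFD library 3 held mmu_circ_0007078 (exons 3 to 5, 1 read). Circles confined to 1 library made up 80.0% of the circles of Prkce and 70.7% of all 7122 circRNAs. At 3 reads or fewer, none of these 4 circles could be told from absence in the other libraries.

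Circular RNA from Pik3c2a was found in all 6 libraries. The reads of its 9 circles together numbered 2, 6 and 8 across the HFD libraries and 18, 12 and 11 across the LFD libraries, 57 in all. In SRPBM these were 0.459, 1.53 and 2.15 in the HFD group and 4.79, 3.32 and 2.90 in the LFD group. Every LFD library lay above every HFD library. Among all 1834 host genes with reads in at least 2 libraries, 54 (2.94%) had every LFD library above every HFD library. Such an order needs reads in all 3 LFD libraries, so genes with reads in only 2 libraries could not show it. Reads in at least 3 libraries were found for 1203 host genes, so the share among genes that could show it is above 2.94%. The mean was 1.38 ± 0.855 SRPBM (SD, n = 3) in the HFD group and 3.67 ± 0.994 SRPBM (SD, n = 3) in the LFD group, a ratio of 2.66 that lay between 2.00 and 3.70 when each library was left out in turn.

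**Figure D2:**
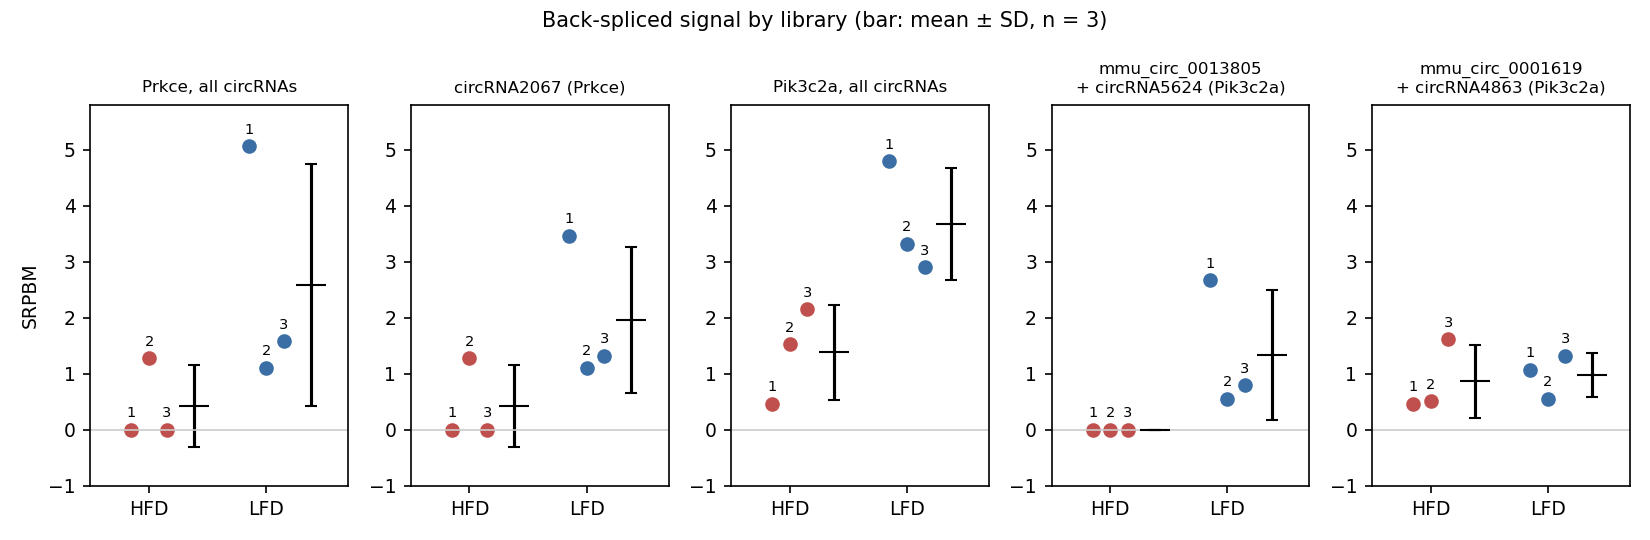
SRPBM in each library (points, numbered by replicate) for the sums over the circles of Prkce and of Pik3c2a and for the 3 circles with at least 10 reads, with the mean and SD of each diet (n = 3). All 3 HFD libraries are at 0 for mmu_circ_0013805, and the diets overlap for mmu_circ_0001619, for circRNA2067 and for the sum of Prkce.

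The most read circle of Pik3c2a, mmu_circ_0001619 (exons 20 and 21), held 21 of its 57 reads (36.8%) and was the only one of the 14 circles with reads in all 6 libraries. It had 2, 2 and 6 reads across the HFD libraries and 4, 2 and 5 reads across the LFD libraries. The groups overlapped, and the highest value was that of HFD library 3. The mean was 0.860 ± 0.652 SRPBM (SD, n = 3) in the HFD group and 0.979 ± 0.390 SRPBM in the LFD group (SD, n = 3). The difference was smaller than either SD. Without the entry 1 bp away the HFD mean was the higher by 0.236 SRPBM.

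The circle mmu_circ_0013805 (exons 5 to 8) held 15 reads (26.3% of those of Pik3c2a) and had no read in the HFD group. It had 0, 0 and 0 reads across the HFD libraries and 10, 2 and 3 reads across the LFD libraries. The groups did not overlap, as was the case with the LFD group above for 2.25% of all circRNAs with reads in at least 2 libraries. In LFD library 2 both reads were of the entry circRNA5624, and without that entry LFD library 2 was at 0 and the groups overlapped. The LFD mean was 1.34 ± 1.16 SRPBM (SD, n = 3), at least 1.78-fold higher than the HFD level that 3 reads per library allow. Without LFD library 1 the LFD mean was 0.672 SRPBM, which is under 3 reads per library and gives no fold.

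The other 7 circles of Pik3c2a had 1 to 8 reads. mmu_circ_0013800, the longest circle of the gene (exons 15 to 20), had 0, 3 and 0 reads across the HFD libraries and 3, 1 and 1 reads across the LFD libraries. mmu_circ_0013806, which adds exon 4 to the exons of mmu_circ_0013805, had 1 read in HFD library 2 and 4 reads in LFD library 2. mmu_circ_0013802 (exons 15 and 16) had 2 reads in HFD library 3 and 2 reads in LFD library 3. These 3 circles had no more than 4 reads in any library, and their groups overlapped. The circles circRNA4466 (exons 16 and 17), circRNA5245 (exons 18 to 20), circRNA5246 (exons 15 to 17) and circRNA5247 (exons 12 to 14) had 1 read each, the first in LFD library 1 and the other 3 in LFD library 2.

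The circles of Pik3c2a fell into 2 regions of the gene that share no exon, a split made after the values were seen. The 2 circles over exons 4 to 8 had 0, 1 and 0 reads across the HFD libraries and 10, 6 and 3 reads across the LFD libraries. The 7 circles over exons 12 to 21 had 2, 5 and 8 reads across the HFD libraries and 8, 6 and 8 reads across the LFD libraries. The groups did not overlap over exons 4 to 8, where the means were 0.0848 ± 0.147 SRPBM in the HFD group and 1.71 ± 0.937 SRPBM in the LFD group (SD, n = 3). They overlapped over exons 12 to 21, where the means were 1.29 ± 0.845 and 1.97 ± 0.265 SRPBM (SD, n = 3), a ratio of 1.52. Of the 25 reads by which the summed LFD libraries exceeded the summed HFD libraries, 18 lay over exons 4 to 8 and 7 over exons 12 to 21. The circle mmu_circ_0013805 held 15 reads over exons 4 to 8, all in the LFD group, so the split follows the contrast that chose the gene. Every LFD library lay above every HFD library for 2.94% of host genes and 2.25% of circRNAs with reads in at least 2 libraries. These shares include those with reads in only 2 libraries, which could not show such an order. The difference between the regions was not tested.

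**Figure D3:**
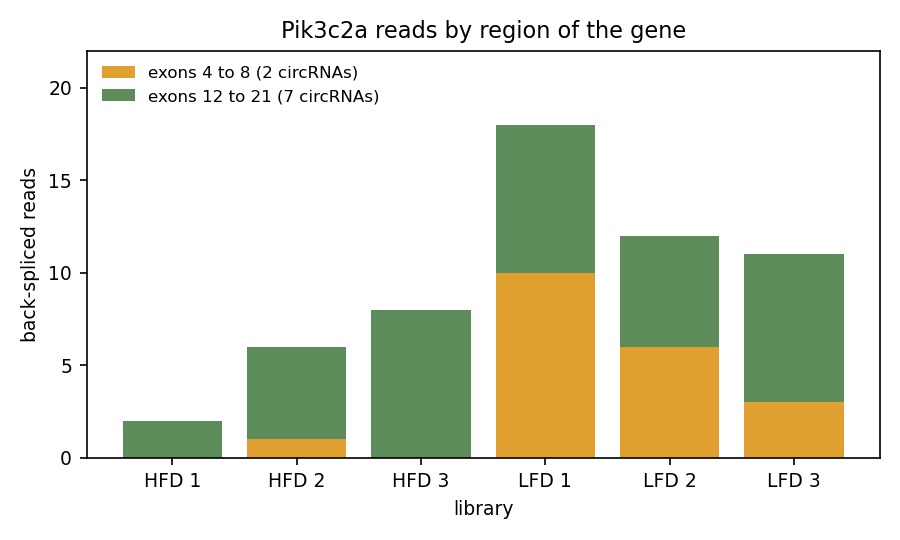
Back-spliced reads of Pik3c2a in each library, stacked by the region of the gene that the circles cover. The lower part of each bar (exons 4 to 8) is 0 or 1 read in the HFD libraries and 3 to 10 reads in the LFD libraries, and the upper part (exons 12 to 21) is 2 to 8 reads in the HFD libraries and 6 to 8 reads in the LFD libraries.

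Over both genes, 9 of 14 circles had no read in the HFD group and 0 had no read in the LFD group. Among all 7122 circRNAs 36.4% had no read in the HFD group and 40.2% none in the LFD group. The 2 genes were chosen on the contrast of the diets, so these shares are no test. Of the 14 circles 8 lay in 1 library only, which by itself leaves 1 diet without a read. The summed signal of both genes was 0.459, 2.80 and 2.15 SRPBM across the HFD libraries and 9.85, 4.43 and 4.48 SRPBM across the LFD libraries. This sum adds Pik3c2a, for which the groups did not overlap, to Prkce, for which they did. The number of circles detected per library was 0, 1 and 0 for Prkce and 1, 3 and 2 for Pik3c2a across the HFD libraries. In LFD libraries 1, 2 and 3 it was 4, 1 and 2 for Prkce and 4, 7 and 4 for Pik3c2a. Of the 14 circles, 1 of Prkce and 5 of Pik3c2a had reads in at least 2 libraries.

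The libraries held between 5384 and 6590 back-spliced reads, the smallest total being that of LFD library 1, where both genes had most reads. In the study's sequencing statistics LFD library 1 had the lowest share of uniquely mapped reads and HFD library 1 the highest. The part of this share in the values was not tested. By base quality (Q30), HFD library 1 and LFD library 3 formed a higher class than the other 4. Within the lower class the LFD to HFD ratio was 4.85 for Prkce and 2.21 for Pik3c2a. Of the cell type markers, circRNAs were listed for 10 of 10 hepatocyte genes, 2 of 8 of Kupffer cells and macrophages, 2 of 9 of stellate cells and fibroblasts, 3 of 8 of endothelial cells, 0 of 6 of cholangiocytes and 0 of 8 of lymphocytes and neutrophils. The hepatocyte genes summed to 2.29 to 6.88 SRPBM in the HFD group and 1.66 to 5.27 SRPBM in the LFD group. The Kupffer cell genes summed to 0 to 0.459 SRPBM in the HFD group and 0.527 to 0.830 SRPBM in the LFD group, from 9 reads of Adgre1 and 1 read of Vsig4, with Clec4f, Cd5l, Marco, Timd4, Cd68 and Csf1r at 0. No library held more than 3 reads of this list, so that its sums could not be told from absence, and their part in the result was not tested. Endothelial genes summed to at most 0.459 SRPBM in the HFD group and 1.11 SRPBM in the LFD group, and stellate genes to at most 0.254 SRPBM in any library. In whole liver, fewer cells of a type and less RNA per cell cannot be told apart.

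The levels of the 2 genes were compared within libraries. The genes were picked by the contrast of the diets and not by their order, but the same reads enter both. The comparison is therefore not independent of the choice. Over the 6 libraries Pik3c2a had a mean of 2.52 ± 1.51 SRPBM and Prkce a mean of 1.50 ± 1.86 SRPBM (SD, n = 6). Pik3c2a was higher in 5 of 6 libraries, the exception being LFD library 1, by 1.02 ± 1.03 SRPBM (SD) on average (two-sided exact permutation test of signs within libraries, p = 0.0938). The smallest p this design allows is 0.0312. A difference in level beyond the spread between libraries was not shown. Among the 3468 host genes, 108 had more back-spliced reads than Pik3c2a and 209 had more than Prkce, and 38 and 158 had more circles.

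Several features of the circles did not enter the choice of the genes. All 14 circles began and ended at exon borders of the host transcript on GRCm38, and all lay wholly within its coding sequence. The Prkce transcript (chr17, plus strand, 15 exons, 737 codons) spans positions 86167785 to 86657919, and 11 of its exons were in a circle. The Pik3c2a transcript (chr7, minus strand, 33 exons, 1686 codons) spans positions 116337265 to 116443449, and 15 of its exons were in a circle. No circle held exons 1 and 2 or the last exon of its gene, and in Pik3c2a none held any of exons 22 to 33. Only mmu_circ_0007080 overlapped another annotated gene, Gm10309 on the opposite strand (chr17:86497732-86505232), which lies within the intron between exons 10 and 11 of Prkce.

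The base composition of the circles separated the genes. The circles of Prkce were 281 to 769 nt long with a GC content of 52.1% to 53.6%, and those of Pik3c2a were 198 to 810 nt long with a GC content of 36.2% to 45.9%. The ranges of GC content did not overlap, and the median of 5583 exonic circRNAs, 47.9%, lay between them. The introns upstream of the circles were 5910 to 120698 bp long in Prkce and 557 to 11501 bp in Pik3c2a, against a median of 6797 bp. Downstream introns were 4547 to 63039 bp long in Prkce and 557 to 9080 bp in Pik3c2a, against a median of 5023 bp. Circles of a gene share exons and introns, so these ranges are descriptions and not replicates.

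Of the 3 most read circles, circRNA2067 was 614 nt long (median of all, 405 nt) and held codons 275 to 479 of protein kinase C epsilon. Its downstream intron of 63039 bp was longer than 96.9% of those of exonic circRNAs. mmu_circ_0013805 was 377 nt long and held codons 444 to 569 of the Pik3c2a protein. mmu_circ_0001619 was 198 nt long, longer than only 5.89% of exonic circRNAs, and held codons 1073 to 1138. Since all 14 circles lay wholly within the coding sequence, none could hold a stop codon in the host's reading frame. The reading frame across the back-splice junction was not searched. The length was a multiple of 3 in 4 of 9 circles of Pik3c2a and in 0 of 5 of Prkce, and mmu_circ_0001619 was among the 4.

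**Figure D4:**
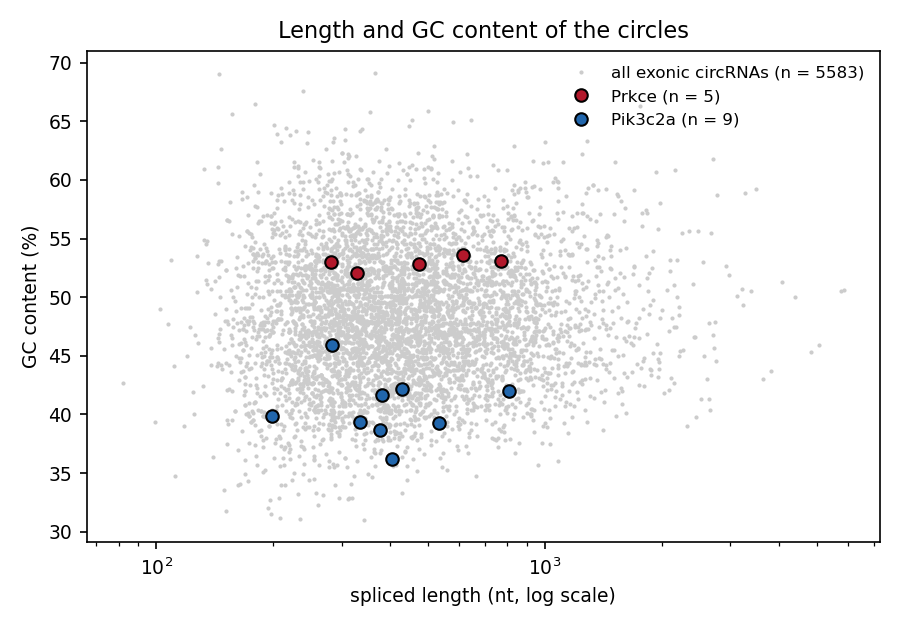
GC content against spliced length (log scale) of the 5 circles of Prkce, the 9 of Pik3c2a and all 5583 exonic circRNAs whose borders matched exons of the listed isoform. The circles of Prkce lie between 52.1% and 53.6% GC, and all circles of Pik3c2a lie at or below 45.9%.

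Matches to miRNA seeds were searched because circRNAs are often discussed as binding partners of miRNAs. Of 17 miRNAs of liver or of the study's networks, 15 had a mature sequence in the RefSeq table used here (GRCm38.p6). The others, mmu-miR-122-5p and mmu-miR-143-3p, were not found there and were not searched. The 7-base complement of bases 2 to 8 was looked for in the sense strand of the 3 circles, junction included, and 3 of the 45 combinations of circle and miRNA had a match. The mature sequences of the miRNAs concerned are given with the seed in capitals.
mmu-miR-22-3p (chr11:75463772-75463793, plus strand): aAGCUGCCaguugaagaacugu
mmu-miR-29a-3p (chr6:31062673-31062694, minus strand): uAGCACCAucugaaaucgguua
The match to mmu-miR-22-3p, GGCAGCT, stood in exon 5 of mmu_circ_0013805 from base 75, and in exon 9 of circRNA2067 from base 426. These letters were in 5.43% of 1786 exonic circRNAs of 0.8 to 1.25 times the length of mmu_circ_0013805 and in 10.5% of 1158 of like length to circRNA2067. The match to mmu-miR-29a-3p, TGGTGCT, stood in exon 8 of circRNA2067 from base 152, as in 7.69% of the circRNAs of like length. mmu_circ_0001619 had no match to the 15 seeds. The matches are shown in capitals with 10 bases on either side.
mmu-miR-22-3p match in circRNA2067: gttgggcaaaGGCAGCTttggcaaggt
mmu-miR-22-3p match in mmu_circ_0013805: agtggatgttGGCAGCTacattctgaa
mmu-miR-29a-3p match in circRNA2067: agctcgctgcTGGTGCTgagtccccac
A match is a run of letters, and binding was not measured.

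The pathways that the deposited table lists for the genes did not coincide. Prkce was listed in 12 KEGG pathways, among them sphingolipid signalling, insulin resistance and type II diabetes mellitus. Pik3c2a was listed in 2, inositol phosphate metabolism and the phosphatidylinositol signalling system, and 0 were shared.

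The host genes whose summed signal was most like each kinase over the 6 libraries were found among 249 host genes with at least 30 reads, by Pearson's r of log2(SRPBM + 0.25), as a description. For Prkce these included Lrch3, a leucine-rich repeat protein (r = 0.890), and Ide, the insulin-degrading enzyme (r = 0.796). Lrch3 had 8, 11 and 8 reads across the HFD libraries and 12, 12 and 11 across the LFD libraries. For Pik3c2a they were Ddi2, an aspartyl protease (r = 0.906), Cfhr3, a relative of complement factor H (r = 0.873), and Dpy19l1, a mannosyltransferase (r = 0.863). Ddi2 had 8, 8 and 12 reads across the HFD libraries and 14, 12 and 14 across the LFD libraries. The points are 6 libraries that share depth and scaling with the kinases. They also hold the diet contrast on which the kinases were chosen, so a host gene higher in the LFD group can rank high by that alone. Prkce was at 0 reads in HFD libraries 1 and 3.

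Other genes of the lipid signalling pathways were tested between the diets in the fit over all host genes, with edgeR's quasi-likelihood test. A call required an unadjusted p under 0.05 and a change of at least 1 on the log2 scale in either direction. Over all 1834 host genes with reads in at least 2 libraries, 42 (2.29%) passed these thresholds, of which 23 (1.25%) were higher in the HFD group and 19 (1.04%) lower, while 0 had a Benjamini-Hochberg adjusted p under 0.05. This balance turned to 17 higher and 44 lower without LFD library 1 and to 38 higher and 15 lower without HFD library 2. Of 156 genes in 7 lists, 58 had circRNAs, 36 were tested and 3 passed, 2 of them higher in the HFD group. With 3 calls among 36 genes the share was 8.33%, and 0 had an adjusted p under 0.05. The median log2 fold change (HFD over LFD) was 0.25 over the 36 genes and -0.09 over all host genes tested. It was also 0.25 over the 28 of these genes with reads in both diets, since the fitted value of the other 8 depends on the prior count of the fit. The medians given below for single lists rest on 4 to 11 tested genes. Each of these lists holds such a gene, so its median is a description.

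Diacylglycerol, the activator of protein kinase C epsilon, is made and removed by the enzymes of the list with 2 of the 3 calls. Of its 30 genes 10 had circRNAs and 5 were tested, with a median log2 fold change of -0.32. Plpp3, a lipid phosphate phosphatase, had 2, 9 and 3 reads across the HFD libraries and 0 in every LFD library. Its HFD mean of 1.19 ± 0.973 SRPBM (SD, n = 3) was at least 1.47-fold higher than the LFD level that 3 reads per library allow (edgeR adjusted p = 0.798). Every HFD library lay above every LFD library, as for 3.27% of host genes with reads in at least 2 libraries. Lpin1, a phosphatidate phosphatase that forms diacylglycerol, had 0, 1 and 0 reads across the HFD libraries and 3, 3 and 6 across the LFD libraries. The LFD libraries lay above the HFD libraries without overlap, as for 2.94% of host genes with reads in at least 2 libraries. Both this share and that given for Plpp3 include genes with reads in only 2 libraries, which could not show such an order. The means were 1.07 ± 0.443 SRPBM in the LFD group and 0.0848 ± 0.147 SRPBM in the HFD group (SD, n = 3, edgeR adjusted p = 0.798). Dgkd, a diacylglycerol kinase and the most read gene of the list (28 reads), had 2, 2 and 9 reads across the HFD libraries and 3, 8 and 4 across the LFD libraries.

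The list of phospholipases C and of inositol phosphate handling had 1 call. Of its 34 genes 7 had circRNAs and 4 were tested, with a median log2 fold change of 0.32. Itpr2, a calcium channel opened by inositol trisphosphate, had 8, 15 and 2 reads across the HFD libraries and 1, 1 and 3 across the LFD libraries. HFD library 3 lay below LFD library 3, and the means were 2.06 ± 1.65 and 0.445 ± 0.300 SRPBM (SD, n = 3; edgeR log2 fold change 2.10, adjusted p = 0.798). Pitpnb, a phosphatidylinositol transfer protein, had the most reads of the list (31), with 3, 4 and 10 across the HFD libraries and 4, 3 and 7 across the LFD libraries.

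Of the 3 calls, that of Plpp3 held when any library was left out and under each other setting tried. Lpin1, at a log2 fold change of -3.29, passed without HFD library 2 but not without any other library, where the log2 fold change lay between -3.45 and -2.85. It also did not pass with limma at a pseudocount of 1, with reads required in at least 3 libraries, with the Q30 class as a term or with the replicate number as a block. Itpr2 did not pass with DESeq2, with limma at a pseudocount of 1 or with the block. It did not pass either without HFD library 1, HFD library 2, LFD library 1 or LFD library 2, and its log2 fold change then lay between 1.44 and 2.09.

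None of the other 5 lists had a call. The relatives of protein kinase C were sparse, with circRNAs for 5 of 14 genes and 1 gene tested. Of these, Pkn2, a PKC-related kinase, had 5 reads and Prkd3, a protein kinase D, had 3. Among the phosphoinositide 3-kinases and their regulatory subunits, 7 of 16 had circRNAs and 5 were tested (median log2 fold change 0.70). Pik3r1, the p85 alpha regulatory subunit, had 6, 15 and 2 reads across the HFD libraries and 3, 1 and 3 across the LFD libraries, with overlap (edgeR adjusted p = 0.798). Pik3c2g, the class II relative of Pik3c2a, had 0, 2 and 0 reads across the HFD libraries and 0, 4 and 1 across the LFD libraries. The diets overlapped for Pik3c2g as well.

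Of the other phosphoinositide kinases 5 of 11 had circRNAs and 4 were tested (median log2 fold change 1.14). These 4 genes had 5 to 7 reads each over all libraries. Pikfyve, which phosphorylates phosphatidylinositol 3-phosphate, had 1, 5 and 1 reads across the HFD libraries and 0 in every LFD library (edgeR adjusted p = 0.798). Every HFD library lay above every LFD library, as for 3.27% of host genes with reads in at least 2 libraries. That share includes genes with reads in only 2 libraries, which could not show such an order. For Pikfyve the order rested on 1 read each in HFD libraries 1 and 3, which could not be told from absence. Pi4ka and Pip5k1a followed with 6 reads each. Of the phosphatases of phosphoinositides and inositol phosphates 9 of 29 had circRNAs and 6 were tested (median log2 fold change -0.78), among them Mtmr3, a 3-phosphatase, with 4, 0 and 2 reads across the HFD libraries and 4, 2 and 5 across the LFD libraries. From the insulin receptor to AKT 15 of 22 genes had circRNAs and 11 were tested (median log2 fold change 0.67). Insr, the insulin receptor, had the most reads (68), with 3.12 ± 0.802 SRPBM in the HFD group and 2.78 ± 1.07 SRPBM in the LFD group (SD, n = 3), which differ by less than either SD. Gab1, a docking protein, had 3, 2 and 4 reads across the HFD libraries and 8, 1 and 5 across the LFD libraries.

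**Figure D5:**
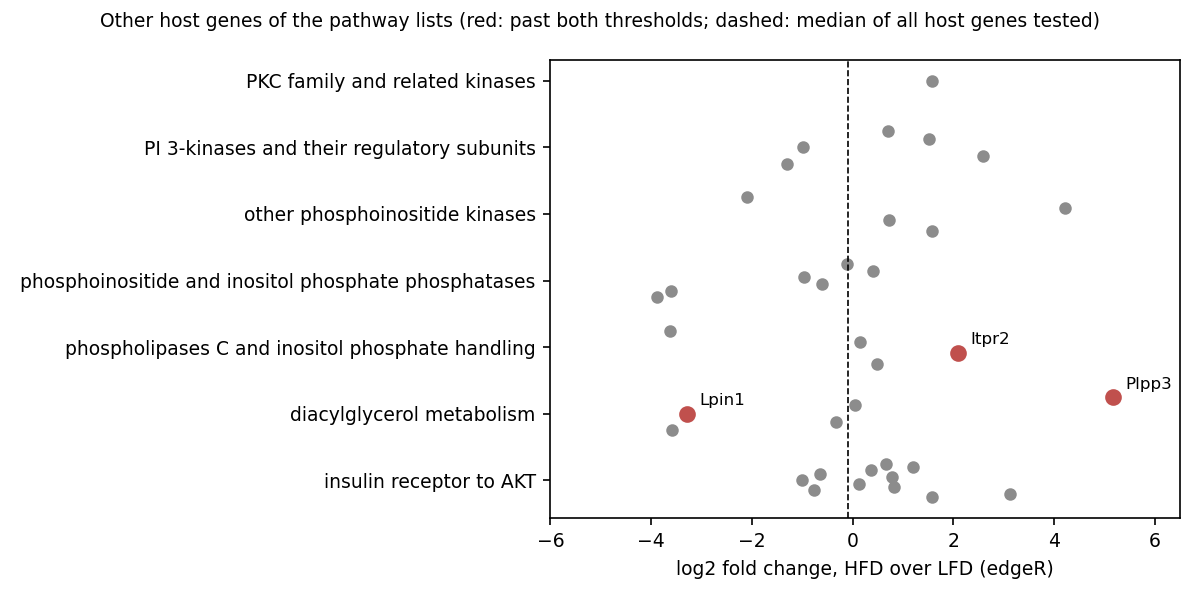
Fitted log2 fold change (HFD over LFD, edgeR, positive values higher in the HFD group) of the 36 tested host genes of the 7 pathway lists, without Prkce and Pik3c2a. Plpp3, Itpr2 and Lpin1 (red) are past both thresholds, and the dashed line is the median of all 1834 host genes tested, -0.09; points of Plpp3 and other genes at 0 in a diet depend on the prior count of the fit.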

How the data were processed

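Liver RNA of 3 HFD and 3 LFD mice was analysed, and libraries were assigned to diet and replicate by their titles. The authors depleted ribosomal RNA, removed adapters with Cutadapt (cutadapt 1.9 in the submitters' processing notes), mapped the reads with Bowtie2, TopHat2 2.0.4 and TopHat-Fusion and used CIRCExplorer2 and CIRI to call circRNAs. Deposited by the authors were the counts of back-spliced reads per circRNA and library, not normalized, and a signal, SRPBM, scaled to the mapped reads. Every SRPBM value equalled the count times a factor of its library within 7.46e-14. The submitters' notes name mm9, but both borders of 5583 of 6068 exonic circRNAs (92.0%) lay on exons of the listed isoform in GENCODE M21 (GRCm38), the build used for all positions here.

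Entries with the same end and strand and starts 1 bp apart were summed (347 pairs). The 2 genes, the pathway lists, the miRNAs and the tests were chosen with earlier results of these data known. The HFD against LFD contrast of the 2 genes was not tested. All circRNAs and all host genes with reads in at least 2 libraries were fitted with edgeR's quasi-likelihood test (TMM), with thresholds of 0.05 for the unadjusted p and 1 for the log2 fold change in either direction, and Benjamini-Hochberg adjustment beside it. Over all circRNAs 47 of 2089 (2.25%) passed, 0 after adjustment. P-values measure the spread between these libraries. The level of the 2 genes was compared with a two-sided exact permutation test over 6 libraries. Lower bounds of folds, against a diet at 0 in every library, use 3 reads in each library of that diet. Only the edgeR fit was tried on simulated counts, with large changes set in features with more reads than most circRNAs here. A pass was required only at the lower of the spreads set. The trial does not cover the other steps or circles with few reads.

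Circles with at least 10 reads were given by library, and of the lists the genes past the thresholds and the 2 with the most reads were named. Values of some host genes are not reported here, but counts include them. Alternatives were other scalings, DESeq2, limma with pseudocounts of 0.25 and 1, other filters, the replicate number or Q30 class (from the study's sequencing statistics) as a term, the entries as listed and each library left out. The authors' functional annotations were read only for the pathways of the 2 genes. Tools were edgeR 4.0.16, DESeq2 1.42.0 and limma 3.58.1 in R 4.3.3, with SciPy 1.17.1, NumPy 2.4.6, pandas 2.3.3 and matplotlib 3.10.9 in Python 3.11.15.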

Additional observations from a re-analysis of the deposited data

How the results depend on the processing

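The LFD group was the higher in mean SRPBM for Prkce, Pik3c2a, circRNA2067 and mmu_circ_0013805 under every scaling, set of libraries and entry list tried. The HFD minus LFD differences lay between -2.90 and -0.672 SRPBM. The latter was that of mmu_circ_0013805 without LFD library 1, where the LFD mean is under 3 reads per library. This contrast chose the genes, so its direction is a description and not a test. With no read of mmu_circ_0013805 in the HFD group, its sign could not change. Pik3c2a lay above Prkce on average under each of 7 alternatives, with p between 0.0625 and 0.188 (permutation test of signs within libraries). With 1 library left out, 5 remained and the smallest p possible was 0.0625, so those settings could not pass 0.05. For mmu_circ_0001619 the HFD minus LFD difference of -0.119 SRPBM reversed to 0.251 in the 4 libraries of lower Q30 and to 0.236 with the entries as listed. It lay between -0.495 and 0.0812 when each library was left out and was above 0 without HFD library 1 (0.0812), HFD library 2 (0.0563) or LFD library 3 (0.0505). The count of circRNAs past the thresholds (47) was 15 with DESeq2, 79 with limma at a pseudocount of 0.25 (49 higher and 30 lower in the HFD group), 12 with limma at 1, 17 with the Q30 class as a term and 19 to 42 when each library was left out, the lowest without HFD library 3. It was 23 without HFD library 2, 24 without LFD library 2 and 27 without LFD library 3. The count of host genes (42) was 25 with DESeq2, 72 with limma at 0.25 (45 higher and 27 lower), 17 with limma at 1, 27 with the Q30 class, 55 with reads in at least 3 libraries (37 higher and 18 lower) and 35 to 61 when each library was left out. The 3 calls among the pathway genes became 1 with limma at a pseudocount of 1, 5 with reads required in at least 3 libraries (Plpp3 and Itpr2 but not Lpin1 among them) and 1 to 4 when each library was left out, 1 without HFD library 1 or LFD library 2. Same-numbered libraries of the diets had correlations of their deviations of -0.0605, 0.103 and -0.0731, so the numbers were not read as pairs. With the replicate number as a block, 9 circRNAs (2 of them higher in the HFD group and 7 lower), 14 host genes and 1 pathway gene, Plpp3, passed. With DESeq2 or limma 0 circRNAs and 0 host genes had an adjusted p under 0.05, and without a filter edgeR gave 1 circRNA. The cause of these differences was not tested. With 34 and 57 reads for Prkce and Pik3c2a over 6 libraries, depth limits what can be told of any circle with few reads.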
